A study of Mus musculus with 23 samples.

Results

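The comparison set clonal preadipocyte lines that formed fat well against lines that formed it poorly, with the lines of Type 1 left out. It took the 5 lines labelled with a differentiation score of 4 and the 8 labelled with a score of 2, 13 of the 23 lines in all. The 7 lines of score 3 were used only for values between both ends, and the 3 Type 1 lines, all of score 2, were not used in the comparison. Each line is 1 clone of the stromal vascular fraction (what remains of adipose tissue once the fat cells are removed), started by sorting, and was measured on 1 mouse expression array.

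All lines were made from 1 animal, a male Immortomouse of 8 weeks, from its perigonadal and subcutaneous depots. Cells of this strain carry a temperature-sensitive simian virus T antigen behind an H-2K promoter, which interferon gamma induces, so that they divide at a low temperature. Every line, in both groups, had been cultured at 33 °C with interferon gamma at 10 units/mL. The score, from 1 to 4, was read from Oil Red O staining of lipid after the induction of differentiation. The sources used here do not say whether the RNA was taken before or after induction.

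The score 4 lines were SCF3-1 and PGF3-2 of Type 2, SCF3-9 and PGF2-2 of Type 3, and PGF2-4, labelled Other. The score 2 lines were SCF1-23, SCF3-8 and SCF3-11 of Type 2, SCF1-15 and PGF3-3 of Type 3, and SCF1-18, SCF3-6 and PGF3-6, labelled Other. SCF and PGF in a name were read as the subcutaneous and the perigonadal depot. There were 3 PGF lines among the score 4 lines and 2 among the score 2 lines (two-sided Fisher's exact test, p = 0.293). Of the name prefixes, PGF2 was present only at score 4 (2 lines) and SCF1 only at score 2 (3 lines; Fisher's exact test over prefixes, p = 0.254), and types gave p = 1 in the same test. The media acidification score averaged 2.40 ± 1.34 in score 4 lines (SD, n = 5) and 2.12 ± 1.36 in score 2 lines (n = 8; exact permutation test, two-sided, p = 0.872).

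Levels are log2 signal as deposited, where 1 unit is a 2-fold change. A mean is given with its SD over lines and a difference with its SE. A difference is the mean of score 4 minus the mean of score 2. Array medians were 5.10 to 5.15 in score 4 lines and 5.11 to 5.16 in score 2 lines. Probe sets at the 3′ end of actin exceeded those at the 5′ end by 0.66 to 1.00 in score 4 lines and by 0.53 to 0.99 in score 2 lines, a check of RNA quality in which the groups overlapped. One score 4 line stood apart: the median correlation of SCF3-9 with the other 12 lines was 0.935, the lowest of the 13. Markers of fibroblasts and preadipocytes averaged 10.55 to 12.03 over 10 genes in score 4 lines and 9.71 to 11.53 in score 2 lines. Those of mature adipocytes averaged 4.23 to 4.79 and 4.16 to 4.43 in score 4 and score 2 lines, under the median of the whole table, 5.13. Mesothelial, endothelial, epithelial and skeletal muscle markers were also under it in both groups, and pericyte markers averaged 5.52 to 5.82 in score 4 lines and 5.52 to 5.90 in score 2 lines. Macrophage and leukocyte markers averaged 4.76 to 5.56 in score 4 lines and 5.24 to 5.74 in score 2 lines. Of the 8 tested, 3 had higher and 5 lower means, with a median difference of -0.12 (0.02 without SCF3-9). Csf1r was the only 1 with an unadjusted p under 0.05 (limma), and it was lower, beside 2.34% of all genes.

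Fat cells form when committed precursors meet insulin, a glucocorticoid and a signal that raises cyclic AMP. Cebpb and Cebpd are induced first, and they switch on Pparg and Cebpa, which keep each other active and turn on the genes of lipid uptake and storage. Wnt signals, tension in the actin cytoskeleton, the coactivators YAP and TAZ and inflammatory cytokines are known to hold precursors back.

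No gene passed the test between both groups. Of 12307 genes tested, 0 (0%) had an adjusted p under 0.05 (limma, Benjamini-Hochberg), and the smallest adjusted p was 0.234. At an unadjusted p under 0.05 there were 743 genes (6.04%), of which 455 (3.7%) had higher and 288 (2.34%) lower means in score 4 lines. All 5 score 4 lines lay above all 8 score 2 lines in 32 genes (0.26%) and below them in 11 (0.0894%). The median difference over all genes was 0.023, and 56.8% of the genes had a higher mean at score 4. A 95% interval reached no further than 1 unit to each side in 11873 genes (96.5%), with a median reach of 0.27. Means differed by more than 1 unit in 107 genes, 30 higher and 77 lower.

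**Figure D1:**
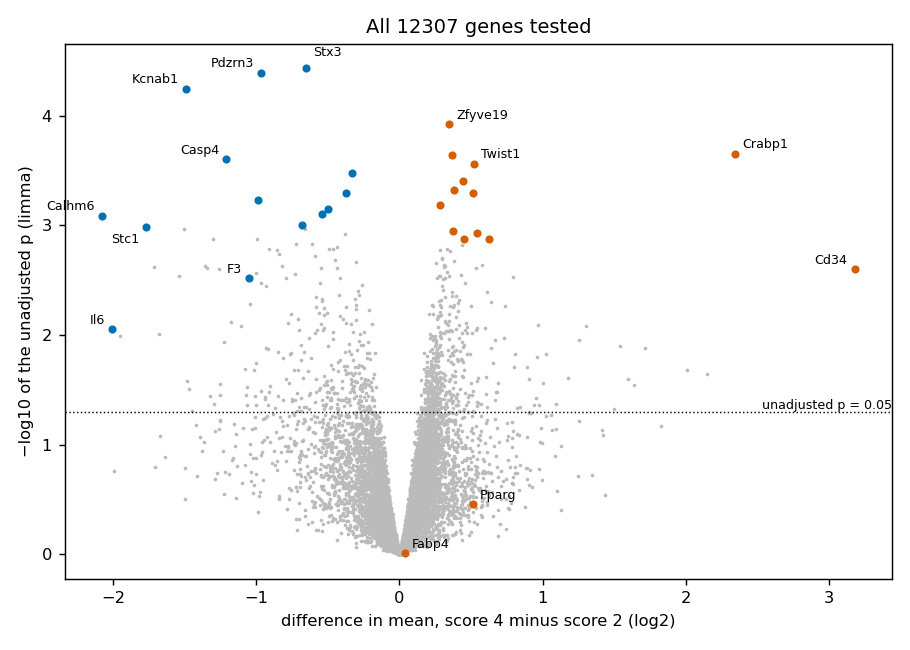
Each of the 12307 genes tested is a point, with its difference in mean (score 4 minus score 2, log2 units) on the horizontal axis and −log10 of its unadjusted limma p on the vertical axis; the dotted line is an unadjusted p of 0.05. Coloured points are the 24 genes of smallest p (12 in each direction) and 5 others that the text describes, and Pparg and Fabp4 lie near the foot of the plot.

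The genes at both ends are described by their values, since none of them passed. The 12 of smallest p with a higher mean at score 4 differed by 0.28 to 2.35, the 12 with a lower mean by -0.33 to -2.08, and their adjusted p ran from 0.234 to 0.501. In 9 of the 12 higher genes and 8 of the 12 lower ones, no score 4 line lay within the range of the score 2 lines, beside 0.26% and 0.0894% of all genes; the choice by p favours such genes.

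The widest gap among the higher genes was in Crabp1, which binds retinoic acid in the cytoplasm. Its level was 5.73 in SCF3-1, 8.35 in SCF3-9, 7.04 in PGF2-2, 4.95 in PGF2-4 and 5.14 in PGF3-2, against a lowest of 3.57, a median of 3.78 and a highest of 4.59 in the score 2 lines. All score 4 lines were above the highest score 2 line, with both Type 3 lines at the top. Every score 2 line and PGF2-4 lay under the median of the whole table, 5.13, and PGF3-2 was level with it. Among the 13 lines only score 4 lines exceeded that median, and filters asking for 5 or 8 of the 13 lines left Crabp1 out. The separation of the groups in Crabp1 is therefore only a description. No detection calls were used, so whether these lines expressed Crabp1 was not tested, and the size of the fold difference is uncertain. The means were 6.24 ± 1.43 in score 4 lines and 3.90 ± 0.34 in score 2 lines, a difference of 2.35 ± 0.47 (5.08-fold, adjusted p = 0.424, limma), and with each line left out in turn it was 1.82 to 2.67.

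Sequence before the annotated start is shown for Crabp1 and for 2 of the genes lower at score 4, Amotl2 and F3, which belong to the YAP and TAZ targets described further on. These are the 250 bases before the start on the coding strand, 5′ to 3′, from RefSeq on build GRCm38.p6: chr9:54764498-54764747 (plus strand) for Crabp1, chr9:102717554-102717803 (plus strand) for Amotl2 and chr3:121723287-121723536 (plus strand) for F3. Capitals mark GGAATG, the core letters bound by TEAD partners of YAP, TGTGGT, bound by RUNX factors, and AGGTCA, bound by nuclear receptors, each searched on both strands.
Crabp1: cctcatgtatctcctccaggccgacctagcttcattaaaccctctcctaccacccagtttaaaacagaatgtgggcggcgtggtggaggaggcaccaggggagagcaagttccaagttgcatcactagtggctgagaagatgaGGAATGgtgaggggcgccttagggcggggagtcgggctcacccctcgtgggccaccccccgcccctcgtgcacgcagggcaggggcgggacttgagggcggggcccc
Amotl2: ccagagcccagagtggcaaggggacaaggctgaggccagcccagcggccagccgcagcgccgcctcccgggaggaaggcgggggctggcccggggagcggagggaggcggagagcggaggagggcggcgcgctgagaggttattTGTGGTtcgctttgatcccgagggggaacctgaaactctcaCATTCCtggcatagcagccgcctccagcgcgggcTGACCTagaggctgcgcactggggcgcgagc
F3: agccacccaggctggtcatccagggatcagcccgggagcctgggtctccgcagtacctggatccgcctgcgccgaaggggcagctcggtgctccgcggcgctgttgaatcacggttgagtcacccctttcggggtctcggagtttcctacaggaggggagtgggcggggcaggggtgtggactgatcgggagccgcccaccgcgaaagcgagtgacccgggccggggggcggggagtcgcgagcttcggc

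The Amotl2 stretch holds all 3 motifs, with GGAATG read on the other strand as CATTCC 65 bases before the start. Crabp1 holds GGAATG 107 bases before it, and F3 holds none of the 3. Over all promoters in the table, 12.6% of these windows hold GGAATG, 14% TGTGGT and 14% AGGTCA. Of the 18 of the 24 genes at both ends with an entry, 4 hold GGAATG (Crabp1, Mtmr11, Runx1 and Amotl2) in at least 1 annotated start, against 14.4% of all genes counted that way. TGTGGT is held by 1 of the 18 (Amotl2), against 15.9% of all genes, and AGGTCA by 2 (Zbtb25 and Amotl2), against 15.8%. These matches are descriptions of the letters and not sites of binding.

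Among the other genes with higher means, Twist1, a helix-loop-helix transcription factor of mesenchymal cells, also belongs to the list of adipogenesis inhibitors. Its level was 9.60 in SCF3-1, 9.70 in SCF3-9, 9.84 in PGF2-2, 9.78 in PGF2-4 and 9.87 in PGF3-2, against 8.99, 9.13 and 9.58 as lowest, median and highest of the score 2 lines. The lowest score 4 line was thus just above the highest score 2 line, SCF3-6, and the difference was 0.52 ± 0.11 (adjusted p = 0.424). Zfyve19, a regulator of the last step of cell division, differed by 0.35 ± 0.06 with levels of 7.45 to 7.61 in score 4 lines and 7.10 to 7.33 in score 2 lines. Zbtb25, a zinc finger factor, differed by 0.37, Bzw2 by 0.45, the kinase Map3k4 by 0.38, Mipol1 by 0.51, and Bod1, which helps chromosomes attach to the spindle, by 0.28. Lyrm4, needed to build iron-sulphur clusters, differed by 0.38, S100a10, a partner of annexin A2, by 0.54, the factor Tfap4 by 0.45 and Mtmr11, of the myotubularin family, by 0.62. Groups overlapped in Map3k4, S100a10 and Mtmr11.

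Stx3, a syntaxin that drives vesicle fusion, had the smallest p of all genes and a lower level at score 4. It measured 8.57 in SCF3-1, 8.90 in SCF3-9, 8.64 in PGF2-2, 9.00 in PGF2-4 and 9.04 in PGF3-2, against 9.23, 9.48 and 9.67 as lowest, median and highest of the score 2 lines. The groups did not overlap, and the difference was -0.65 ± 0.11 (adjusted p = 0.234). Both other probe sets of the gene differed the same way, by -0.37 and -0.66.

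Pdzrn3, a ubiquitin ligase with PDZ domains, read 9.43 in SCF3-1, 9.06 in SCF3-9, 9.04 in PGF2-2, 9.02 in PGF2-4 and 9.61 in PGF3-2, against 9.77, 10.20 and 10.61 as lowest, median and highest of the score 2 lines (difference -0.97 ± 0.16, adjusted p = 0.234). For Kcnab1, a beta subunit of potassium channels, the score 4 lines read 7.36, 6.79, 5.75, 6.44 and 6.42 in the same order of lines, against 7.46, 8.01 and 8.70 at score 2. The 2.82-fold difference in Kcnab1 (-1.49 ± 0.26, adjusted p = 0.234) left SCF3-1 just under the lowest score 2 line. Over the 13 lines the genes most like Kcnab1 in Pearson correlation were the thrombin receptor F2r (r = 0.869), the collagen Col5a2 (0.852) and Amotl2 (0.844), as a description over lines that include both groups. The genes most like Pdzrn3 were Nuak2 (0.897), F3 (0.873) and Slc39a13 (0.859), those most like Stx3 were Tbk1 (0.838), Cpeb3 (0.834) and Gpr176 (0.830), and those most like Crabp1 were Cdk20 (0.917), Zfp937 (0.916) and Bod1 (0.915).

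Casp4, the inflammatory caspase that senses bacterial lipopolysaccharide, was lower by 1.21 units (-1.21 ± 0.25, adjusted p = 0.424). It read 8.63 in SCF3-1, 7.27 in SCF3-9, 8.07 in PGF2-2, 8.97 in PGF2-4 and 8.25 in PGF3-2, against 9.02, 9.38 and 10.01 at score 2. Calhm6, of the calcium homeostasis modulator family, differed by -2.08 ± 0.48. In it SCF3-1 (8.58) and PGF2-4 (8.45) lay above the lowest score 2 line (8.39), while SCF3-9 was far down at 6.06. Stc1, the secreted hormone stanniocalcin, averaged 6.06 ± 0.72 in score 4 lines and 7.83 ± 0.87 in score 2 lines, with PGF3-2 (6.85) just under the lowest score 2 line (6.88).

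Runx1, a transcription factor of blood and mesenchymal cells, differed by -0.99 ± 0.22 (adjusted p = 0.501). Its 6 probe sets differed by -0.20 to -0.99, all with the same sign. Levels ran from 7.31 in SCF3-9 to 7.87 in PGF3-2 among score 4 lines, and from 7.86 to 9.56 in score 2 lines, so that PGF3-2 was level with the lowest score 2 line (7.86, SCF1-23). The tetraspanin Tspan4 (-0.50), Tmem88, an inhibitor of Wnt signalling (-0.33), Rb1cc1, which starts autophagy (-0.37), and Tmem140 (-0.68) complete the set. Of the 24 genes, 9 had several probe sets tested, and in 0 of them did another probe set have the opposite sign. Sizes varied more than signs. The other probe sets differed by 0.04 in Bzw2, 0.16 to 0.21 in Map3k4, 0.17 in Mipol1 and 0.27 in Mtmr11. They differed by 0.44 and 0.49 in S100a10, -1.05 in Kcnab1 and -0.70 in Rb1cc1.

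**Figure D2:**
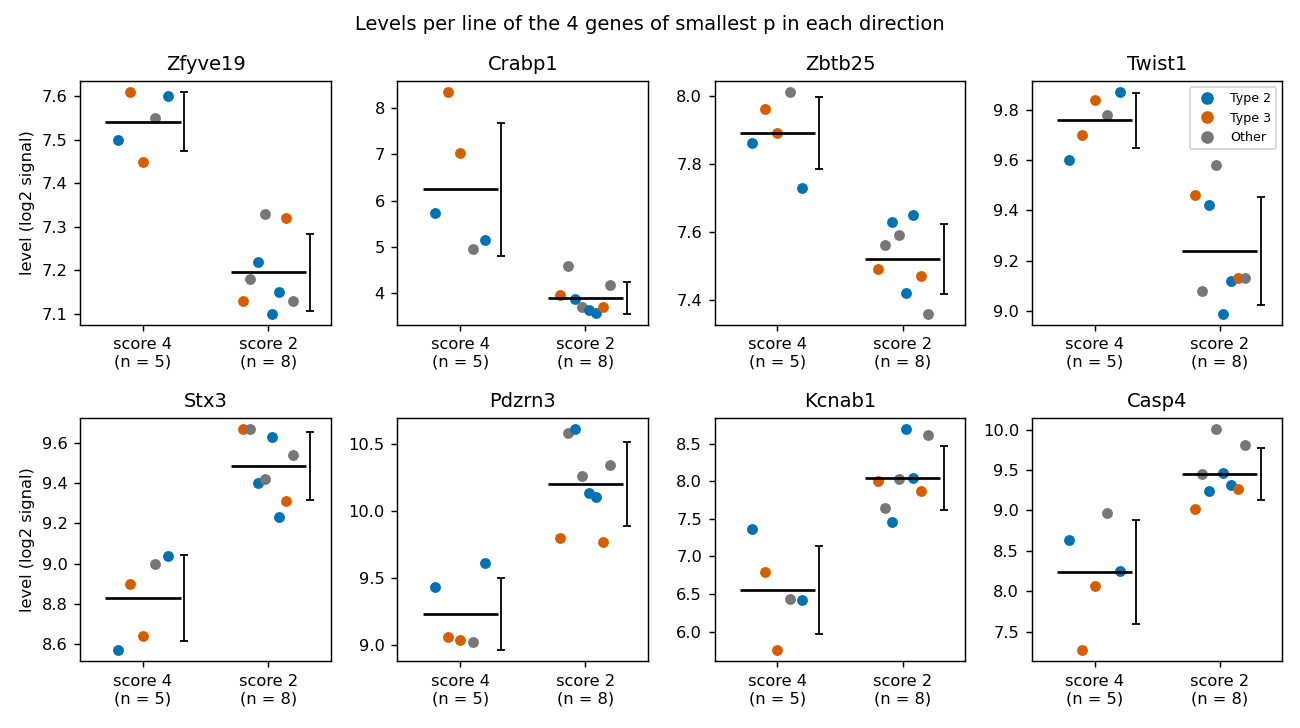
Levels (log2 signal) of the 4 genes of smallest p with higher means (top row) and with lower means (bottom row) at score 4; each point is a line, coloured by type, with score 4 at the left (n = 5) and score 2 at the right (n = 8), and bars are the mean and SD. The groups do not overlap in any of these 8 genes, which were chosen for their small p.

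The central regulators of fat cell formation had overlapping levels in both groups. Pparg read 8.51 in SCF3-1, 7.92 in SCF3-9, 7.95 in PGF2-2, 8.26 in PGF2-4 and 8.49 in PGF3-2, against 5.64, 7.86 and 9.20 as lowest, median and highest of the score 2 lines. The score 4 lines lay within the spread of the score 2 lines, where SCF3-8 was highest and PGF3-6 lowest, and the difference was 0.51 (95% interval -0.62 to 1.65). Cebpa averaged 8.19 ± 0.99 in score 4 lines and 8.15 ± 0.99 in score 2 lines, a difference of 0.04 (interval -1.06 to 1.15). Cebpb differed by -0.19 (-0.67 to 0.29) and Cebpd by -0.07 (-0.73 to 0.60). These intervals still hold changes of about 1 unit for Pparg and Cebpa, and without SCF3-9 the Cebpa difference was -0.08.

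Genes of lipid handling varied widely within both groups. Fabp4, the fatty acid carrier of fat cells, read 7.58, 9.23, 5.90, 7.38 and 8.19 in SCF3-1, SCF3-9, PGF2-2, PGF2-4 and PGF3-2, against 4.74, 7.33 and 10.69 as lowest, median and highest of the score 2 lines. Both the highest and the lowest line of the 13, SCF3-8 and PGF3-6, were of score 2, and the difference was 0.04 (interval -2.05 to 2.13), or -0.36 without SCF3-9. Lpl, the lipase that frees fatty acids from lipoproteins, differed by -0.44 (-1.42 to 0.53). Plin2, which coats lipid droplets, differed by 0.07 (-0.33 to 0.46). Cd36 was below the filter on low values.

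Of the commitment genes, Zfp423, a zinc finger factor of preadipocytes, had the largest difference, 1.07 (interval -0.12 to 2.25, adjusted p = 0.811). It read 6.06 in SCF3-1, 7.92 in SCF3-9, 8.02 in PGF2-2, 7.04 in PGF2-4 and 7.54 in PGF3-2, against 3.49, 6.83 and 7.03 at score 2. In it 4 score 4 lines lay above every score 2 line, PGF2-4 barely so, and SCF3-1 was below the score 2 median. Without PGF3-6, the lowest score 2 line, the difference was 0.67. Ebf1 differed by 0.01, Ebf2 by -0.43, Pdgfra, the receptor that marks precursors, by 0.46, and Dlk1, a membrane protein that blocks differentiation, by 0.89 (-0.41 to 2.18). Without SCF3-9 the difference was 0.19 in Pdgfra and 0.59 in Dlk1, and without SCF3-1 it was 0.18 in Ebf2.

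Of the signals, Wnt5a, a ligand of the branch of Wnt signalling that does not use beta-catenin, was higher by 0.96 (interval 0.07 to 1.85, adjusted p = 0.809). Its level was 8.90, 8.09, 8.89, 8.00 and 8.47 in SCF3-1, SCF3-9, PGF2-2, PGF2-4 and PGF3-2, against 5.92, 7.57 and 8.75 at score 2, and 2 score 4 lines were above every score 2 line. Sfrp1, a secreted inhibitor of Wnt ligands, differed by -0.88 (-1.78 to 0.01), and its 4 other probe sets by -0.73 to -1.02. Within subsets Sfrp1 differed by 0.37 in SCF3 lines, 0.07 in Type 3 and -0.87 in Type 2, and by -0.48 with the name prefix in the model. It differed by -2.18 in Other and -2.01 in PGF3 lines, where PGF2-4 and PGF3-2 respectively are the only score 4 lines. Bmp4 (0.06) and Tgfb1 (0.00) also had differences near 0, but at low levels, above the table median in fewer than 5 of the 13 lines. The glucocorticoid receptor Nr3c1 (0.05), the insulin receptor Insr (0.04) and Igf1r (-0.03) had differences near 0 as well. Without SCF3-9, Insr differed by -0.26 and Igf1r by -0.29. Of the 29 genes of this kind tested, 14 had higher and 15 lower means, 27 had an interval that held 0, and 2 (Wnt5a and F3) had an unadjusted p under 0.05, beside 6.04% of all genes.

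**Figure D3:**
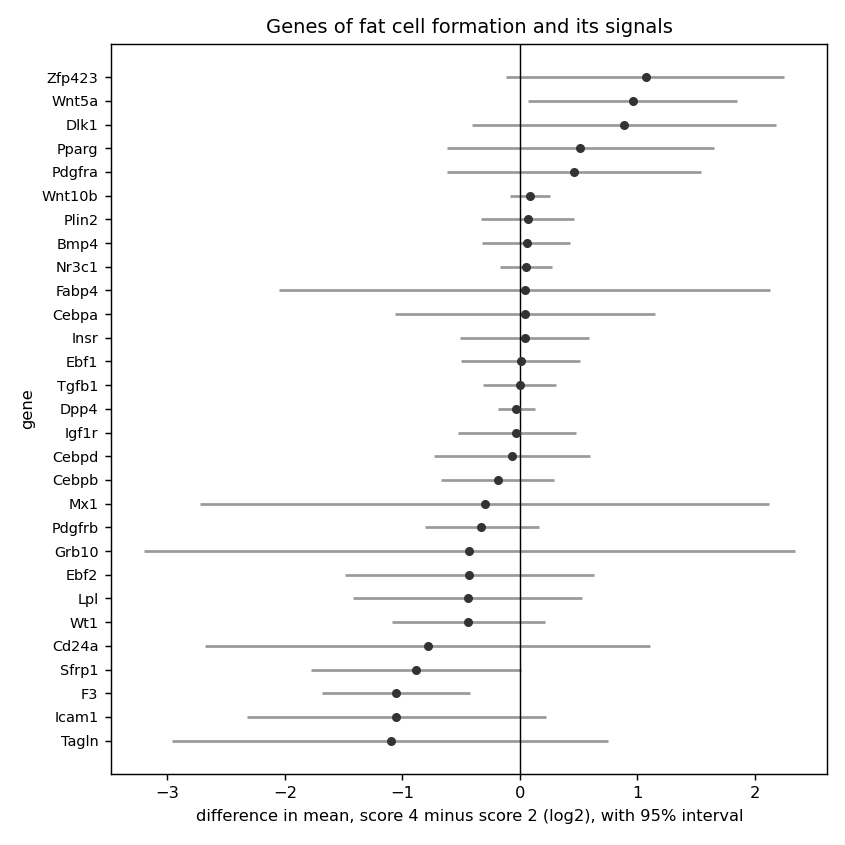
Difference in mean, score 4 minus score 2 (log2 units, horizontal axis), with its 95% interval for 29 genes of fat cell formation, its signals and precursor markers, ordered by difference. Intervals for Fabp4, Grb10 and Mx1 span several units, and those of F3 and Wnt5a do not reach 0.

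Cd34, a surface protein of precursor cells in fat, had the largest difference of all named genes, 3.18 ± 0.86 (9.08-fold, adjusted p = 0.501). It read 6.78 in SCF3-1, 10.85 in SCF3-9, 9.93 in PGF2-2, 8.04 in PGF2-4 and 6.34 in PGF3-2, against 3.49, 5.15 and 7.76 as lowest, median and highest of the score 2 lines. That score 2 median was close to the median of the whole table, 5.13, so the size of the fold difference is uncertain. With each line left out in turn the difference was 2.57 (without SCF3-9) to 3.69. Both Type 3 lines and PGF2-4 were above every score 2 line, and both Type 2 lines were within the score 2 range. Among score 2 lines the highest was SCF1-15, also of Type 3. Score 3 lines reached from 4.89 to 10.66. Of 25 progenitor markers tested, 12 had higher and 13 lower means, with a median difference of -0.02 beside 0.023 for all genes.

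F3, tissue factor, marks precursors of low adipogenic capacity in mouse fat. It was the only 1 of 25 progenitor markers with an unadjusted p under 0.05 and a lower mean, beside 2.34% of all genes. Its levels were 10.23 in SCF3-1, 10.02 in SCF3-9, 9.26 in PGF2-2, 10.39 in PGF2-4 and 10.36 in PGF3-2, against 10.07, 11.24 and 11.76 at score 2. The difference was -1.05 ± 0.29 (adjusted p = 0.501), and 3 score 4 lines lay above the lowest score 2 line, PGF3-3. Icam1, a marker of committed precursors, differed by -1.05 (interval -2.32 to 0.22), or -0.56 without SCF3-1. Its difference was -1.09 within Type 2 and 0.08 within Type 3. Cd24a differed by -0.78 (-2.68 to 1.11). Dpp4, at a level of 5.36 to 5.64 in score 4 lines and 5.46 to 5.71 in score 2 lines, differed by -0.03.

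Gene lists were described by counts and medians over their tested members, since 0 of 35 lists (27 of pathways and functions, 8 of cell type markers) held a gene that passed. Of 26 adipocyte transcription factors, 16 had higher and 10 lower means with a median difference of 0.05, and Tle3, a cofactor that aids Pparg, had the smallest p, at 8.05 to 8.30 in score 4 lines and 7.52 to 7.99 in score 2 lines. Without SCF3-9 the median of this list was -0.07. Of 24 genes of fatty acid uptake and storage, 15 were higher and 9 lower with a median of 0.05, which was -0.03 without SCF3-9 and -0.09 within Type 2. Lpin1, a lipin of triglyceride synthesis, differed by 0.84 (0.53 without SCF3-9), and Pnpla2, the main triglyceride lipase, by -0.42. Of 24 inhibitors of adipogenesis 16 had higher means, Twist1 among them, with a median of 0.12.

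Sterol and fatty acid synthesis genes leaned towards higher means at score 4, with no member that passed. Of 18 cholesterol synthesis genes 15 were higher and 3 lower (median 0.16), and of 16 fatty acid synthesis genes 14 were higher and 2 lower (median 0.15), beside 56.8% of all genes higher. The list of sterol genes averaged 8.80 in SCF3-1, 9.59 in SCF3-9, 9.00 in PGF2-2, 9.31 in PGF2-4 and 9.56 in PGF3-2, against 8.46, 9.05 and 9.83 at score 2, and the groups overlapped. The sterol median was 0.05 without PGF3-2, 0.05 without PGF3-6, 0.08 without SCF3-9, 0.10 without PGF3-3 and 0.29 without SCF3-1. Within subsets it was -0.10 in SCF3 lines, -0.11 in Type 2 and -0.01 in Type 3. It was 0.53 in Other and 1.12 in PGF3 lines, where PGF2-4 and PGF3-2 respectively are the only score 4 lines. The fatty acid synthesis median was -0.01 in SCF3 lines, in Type 2 and in Type 3, against 0.56 in Other and 0.66 in PGF3 lines. Srebf1, an activator of fatty acid synthesis genes, differed by 0.33 ± 0.15. Of 38 cell cycle genes 31 had higher and 7 lower means, with a median of only 0.07. This median was -0.05 within Type 3, 0.20 within Type 2 and 0.21 within Other, where PGF2-4 is the only score 4 line. Mcm4 (0.26) and Pcna (0.20), both of DNA replication, were the 2 of 38 higher at an unadjusted p under 0.05, a share near the 3.7% of all genes.

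Targets and parts of the YAP and TAZ pathway, which reads cell shape and tension, had lower means at score 4 in 19 of 26 genes, with a median difference of -0.15. Of these 26, 5 had lower means at an unadjusted p under 0.05, beside 2.34% of all genes: Amotl2, Arhgef17, F3, the kinase Lats2 that restrains YAP (-0.55), and Tead1, its DNA-binding partner (-0.34). The list averaged 8.68 in SCF3-1, 8.41 in SCF3-9, 8.17 in PGF2-2, 8.37 in PGF2-4 and 8.49 in PGF3-2, against 8.57, 8.66 and 8.97 as lowest, median and highest of the score 2 lines. All but SCF3-1 were below every score 2 line. Amotl2, an angiomotin that binds YAP, read 11.47, 11.16, 10.73, 11.26 and 10.98 in the same order, against 11.45, 11.64 and 11.99 at score 2, so that SCF3-1 was level with the lowest score 2 line (-0.54 ± 0.13, adjusted p = 0.501). Arhgef17 differed by -0.38 ± 0.09. The list's median was -0.09 without PGF2-2 and -0.09 with the name prefix in the model, where 15 of 26 genes were lower. Within the SCF3 lines 14 of 26 were lower, with a median of -0.03. Of the 20 of these 26 genes with an entry, 10 hold GGAATG in at least 1 start (14.4% of all genes), 4 hold TGTGGT (15.9%) and 3 AGGTCA (15.8%).

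Contractile genes of smooth muscle had lower means in 19 of 21 genes, with a median of -0.34, and 1 of them, Mrtfa, a coactivator that senses actin, was lower at an unadjusted p under 0.05, beside 2.34% of all genes. The list averaged 8.63 in SCF3-1, 7.71 in SCF3-9, 7.95 in PGF2-2, 7.99 in PGF2-4 and 8.51 in PGF3-2, against 7.83, 8.59 and 9.82 at score 2. Both Type 2 lines of score 4 were close to the score 2 median, and PGF3-6 was far above all others. Tagln, the actin-binding protein transgelin, read from 6.90 in PGF2-2 to 10.95 in SCF3-1 among score 4 lines and from 7.73 to 12.62 in score 2 lines (difference -1.10, interval -2.96 to 0.75). The median of the list was -0.16 within Type 2, -0.35 within Type 3 and -0.62 within Other, where PGF2-4 is the only score 4 line. Matrix genes were split, with 19 of 39 higher and 20 lower (median -0.05, and -0.17 without SCF3-9), among them Col5a2 at -0.59 ± 0.15 and the collagen Col4a2 at -0.87 ± 0.40.

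**Figure D4:**
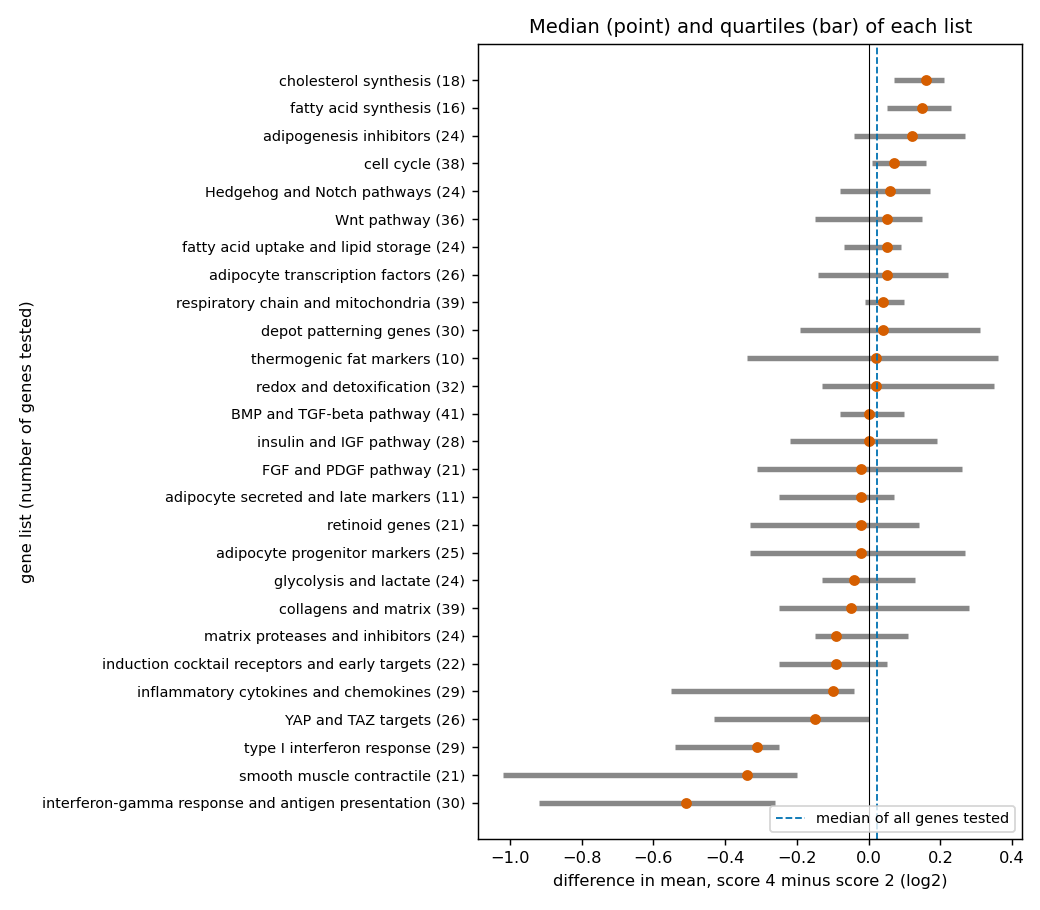
Median (point) and quartiles (bar) of the differences in mean, score 4 minus score 2 (log2 units, horizontal axis), for the 27 lists of pathways and functions, with the number of genes tested in each. The dashed line is the median of all genes tested (0.023), and the interferon-gamma, smooth muscle and type I interferon lists lie farthest from it.

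Interferon genes had lower means almost throughout, and 1 score 4 line lay far below the rest. Of 30 genes of the interferon-gamma response and antigen presentation 29 were lower with a median of -0.51, and 4 of them had an unadjusted p under 0.05, beside 2.34% of all genes. The list averaged 10.44 in SCF3-1, 8.60 in SCF3-9, 10.56 in PGF2-2, 10.65 in PGF2-4 and 10.04 in PGF3-2, against 10.31, 10.56 and 11.06 as lowest, median and highest of the score 2 lines. SCF3-9 alone lay far below, PGF3-2 was slightly below, and the other 3 score 4 lines were within the score 2 range. Gbp6, a guanylate-binding protein, read 12.28, 9.42, 12.44, 12.26 and 11.82 in SCF3-1, SCF3-9, PGF2-2, PGF2-4 and PGF3-2, against 12.26, 12.61 and 12.91 at score 2. The checkpoint ligand Cd274 read 5.19 in SCF3-9 and 7.26 to 8.43 in the other score 4 lines, against 7.75 to 9.49 at score 2. Without SCF3-9, 25 of 30 genes were lower and the median was -0.14, with Gbp6 at -0.38 and Cd274 at -0.54. Within Type 2 the list's median was -0.06 and within Type 3, which holds SCF3-9, -0.96. Within Other, where PGF2-4 is the only score 4 line, it was -0.03. All lines were cultured with interferon gamma per the labels, and its part in the level of SCF3-9 was not tested.

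The type I interferon list was lower in 27 of 29 genes with a median of -0.31. Here 2 score 4 lines were low, SCF3-9 (8.44) and PGF3-2 (8.41), while SCF3-1 (9.80), PGF2-2 (9.20) and PGF2-4 (10.49) lay within the score 2 range of 8.87 to 10.69. The median was -0.12 without PGF3-2, -0.15 without SCF3-9, -0.49 without SCF3-1 and -0.67 without PGF2-4. Within Type 2 it was -0.15 and within Type 3 -0.96. Among the lines labelled Other, where PGF2-4 is the only score 4 line, it was 0.57, with 27 genes higher. Mx1, an antiviral GTPase, spread from 3.98 to 9.72 in score 4 lines and from 4.43 to 10.70 in score 2 lines.

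Cytokine genes had lower means in 23 of 29 members, with a median of -0.10 (-0.22 without SCF3-9), while 56.8% of all genes had higher means. At an unadjusted p under 0.05 (limma) 1 was higher and 1 lower, beside 3.7% and 2.34% of all genes. The list's median was 0.15 within Type 2, where 19 of 29 genes were higher, -0.10 within Type 3 and -0.07 in SCF3 lines. It was -0.90 in Other and -0.55 in PGF3 lines, where PGF2-4 and PGF3-2 respectively are the only score 4 lines. Il6, the cytokine interleukin 6, read 6.65 in SCF3-1, 3.83 in SCF3-9, 7.34 in PGF2-2, 7.58 in PGF2-4 and 8.29 in PGF3-2, against 7.69, 8.69 and 10.52 at score 2 (difference -2.01 ± 0.66, adjusted p = 0.67, or -1.28 without SCF3-9). All score 4 lines but PGF3-2 were below the lowest score 2 line. The macrophage colony-stimulating factor receptor Csf1r, with levels of 6.51 to 10.58 in score 4 lines and 8.17 to 11.68 in score 2 lines, differed by -1.45 (-0.92 without SCF3-9).

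**Figure D5:**
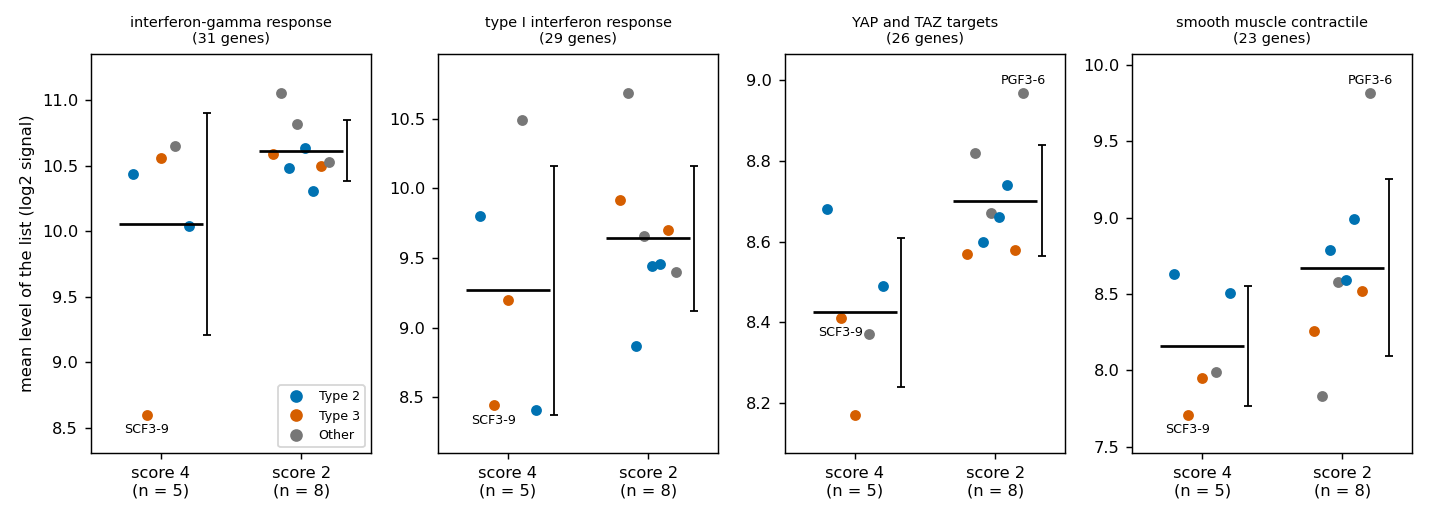
Mean level (log2 signal) of 4 gene lists in each line, coloured by type, with score 4 at the left (n = 5) and score 2 at the right (n = 8), and bars for mean and SD. SCF3-9 stands apart in the interferon-gamma list, PGF3-6 in the smooth muscle list, and 4 of 5 score 4 lines lie below all score 2 lines in the YAP and TAZ list.

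Among growth factor genes, Igfbp5, which binds insulin-like growth factors, was higher by 1.72 ± 0.60 (3.29-fold) and the abundant Igfbp7 lower by 0.44 units (-0.44 ± 0.11), with adjusted p = 0.739 and 0.501 (limma). Igfbp7 lay between 12.23 and 12.73 in score 4 lines and between 12.69 and 13.23 in score 2 lines. The Wnt antagonist Dkk2 differed by 2.15 ± 0.84 and was above 6 in SCF3-1, SCF3-9 and PGF2-4 and under 5 in PGF2-2 and PGF3-2. In score 2 lines it had a median of 3.43 and a highest level of 7.24, in SCF1-15. Of 21 retinoid genes, Crabp1 included, 9 had higher and 12 lower means, with a median of -0.02 (-0.19 without SCF3-9). Adh7, an alcohol dehydrogenase that can oxidise retinol, differed by 0.52, and Dhrs3, a reductase that turns retinal back into retinol, by -0.99 ± 0.25. Gsta4, a glutathione transferase that clears lipid aldehydes, was higher by 1.25 ± 0.43, and Nfe2l2, the activator of antioxidant genes, by 0.45 ± 0.16, while the cytochrome Cyp1b1 differed by -0.94 ± 0.33. Shox2, a patterning gene of the subcutaneous depot in mice, was higher by 0.73 ± 0.25 although 3 of 5 score 4 lines were PGF. Of 39 genes of the respiratory chain and mitochondria 27 had higher means, with a median of 0.04, and of 24 genes of glycolysis and lactate 10 did (median -0.04).

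The 7 score 3 lines were set beside both ends. Score 3 minus score 2 gave 0 genes (0%) at an adjusted p under 0.05 and 991 (8.05%) at an unadjusted p under 0.05, and score 4 minus score 3 gave 0 (0%) and 1212 (9.85%). Both comparisons share lines with score 4 minus score 2. Leaving out SCF1-12 let 1 gene pass in score 3 minus score 2, and in score 4 minus score 3 leaving out SCF3-1 let 1 pass and PGF2-4 4. Crabp1 averaged 3.90 ± 0.34 at score 2, 4.18 ± 0.85 at score 3 and 6.24 ± 1.43 at score 4. Casp4 averaged 9.45 ± 0.32 at score 2, 9.42 ± 0.69 at score 3 and 8.24 ± 0.64 at score 4, and Twist1 9.24, 9.29 and 9.76 in that order. In Kcnab1 the score 3 lines were on the other side, at 8.04 ± 0.43 for score 2, 6.62 ± 0.60 for score 3 and 6.55 ± 0.59 for score 4, and Pdzrn3 had 10.20, 9.42 and 9.23. Stx3 had 9.48, 9.26 and 8.83, the score 3 mean lying between the others. Mx1 was highest at score 3, with 6.60 ± 2.14, 8.88 ± 1.34 and 6.29 ± 2.25 at scores 2, 3 and 4.

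Whether the difference between scores was unlike in types or depots was tested by interaction terms. For Type 2 minus Type 3, 0 of 12307 genes (0%) passed and 637 (5.18%) had an unadjusted p under 0.05. For PGF minus SCF, 0 (0%) passed and 523 (4.25%) had an unadjusted p under 0.05. These counts depend on single lines, since each arm holds few. Without PGF2-2, which left SCF3-9 as the lone score 4 line of Type 3, 44 genes passed in the first. Without SCF3-1, which left SCF3-9 as the lone score 4 line of the SCF depot, 61 passed in the second, and without PGF3-3 15 and without PGF3-6 1. In such fits the lone line is assumed to vary like the other groups. For Crabp1 the effect was 1.75 within Type 2 and 3.87 within Type 3, an interaction of -2.12 that did not pass (adjusted p = 0.866). For Fabp4 the effect was -1.98 within Type 2 and 0.24 within Type 3 (interaction -2.22, adjusted p = 0.877).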

How the data were processed

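Expression was read from biotin-labelled RNA on mouse arrays, 1 per line, with 250 ng of total RNA per the labels' protocols. The authors' deposited series matrix holds log2 values (the scale was read from the values, 2.03 to 14.46). The submitters' processing notes name MAS5 with no version; the sources used here do not give the summarising or scaling steps. Depth has no meaning for arrays; their number limits the precision, and no detection calls were used.

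Symbols came from the platform annotation: 34958 of 45101 probe sets list 1 gene, 932 several and 9211 none, and 34754 were matched by Entrez ID to RefSeq (GRCm38.p6). Each of 18193 genes was represented by its probe set of highest mean over 23 lines; 12307 genes were tested, those whose level exceeded the table median in 3 or more lines.

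Groups came from the labels' scores. Replicate numbers follow the order of deposition. As every line stems from 1 mouse, a p-value reflects only variation from clone to clone. The tests were limma 3.58.1 (lmFit, eBayes) in R 4.3.3 on 13 lines without covariates, 20 lines for score 3, and interaction terms, with Benjamini-Hochberg adjustment over all genes and a threshold of 0.05; labels were compared with exact tests in Python 3.11.15 (scipy 1.17.1). The fits were checked on simulated data. Named are the 12 genes of smallest p in each direction (clone and predicted names left out), 30 fixed genes, and up to 3 members of each list with the smallest p. Lats2 and Tead1, the promoters shown and the motifs were picked after values were seen. Groups, members and lists were chosen with earlier results of these data known. Alternatives covered samples, covariates, normalization, filters, probe sets, weights and each line left out.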

Additional observations from a re-analysis of the deposited data

Results flagged for a closer look

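In 106 groups of values (each named gene at an end or of the fixed set, in score 4 and in score 2), 11 (10.4%) had a line far from the rest of its group by Dixon's test at the 95% level, where chance gives about 1 in 20.

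Of these, 4 concern PGF3-6 as the lowest score 2 line: Mipol1 (4.70, the nearest line 5.29), Lpl (9.72, nearest 11.62), Zfp423 (3.49, nearest 5.91) and Ebf1 (8.26, nearest 9.22). SCF1-18 was the highest score 2 line in Runx1 (9.56, nearest 8.63) and in Tspan4 (11.83, nearest 11.51), and SCF1-15 in Mtmr11 (7.82, nearest 7.27). Bod1 was highest in SCF3-9 among score 4 lines (9.60, nearest 9.38). PGF3-2 was the highest score 4 line in Grb10, an adaptor that restrains insulin signalling (10.54, nearest 5.18), and in Wt1, a factor of mesothelium (3.71, nearest 3.15). In score 2 lines Wt1 was highest in PGF3-3 (5.24, nearest 3.74).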

How the results depend on the processing

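The count of 0 genes at an adjusted p under 0.05 held in all 35 alternatives of score 4 minus score 2, where the smallest adjusted p was 0.0738 (limma, without PGF3-2). The alternatives within PGF3 lines and within Other hold 1 score 4 line each. Those within SCF3 lines, Type 2 and Type 3 hold 2 each, so a count of 0 in these subsets says little. At an unadjusted p under 0.05 the count of 743 was 286 within the PGF3 lines, 446 within Other and 1253 with all probe sets, which tests more features, and 611 to 956 with each line left out. Score 3 minus score 2 gave 0 to 1 genes with a line left out (unadjusted 646, without PGF3-6, to 1438, without SCF1-18), and score 4 minus score 3 gave 0 to 4. The Type 2 minus Type 3 interaction gave 0 to 44 (unadjusted 456 to 2048) and PGF minus SCF 0 to 61 (unadjusted 329 to 1484). The cause of these shifts was not tested. No paired analysis was possible because replicate numbers were given in deposition order and name lines without matching them. Of the 29 tested genes of fat cell formation 26 had the opposite sign in at least 1 alternative, and 5 had a probe set of opposite sign. The 24 genes at both ends kept theirs, having been chosen on these values. Crabp1 was not tested in the alternatives that asked for 5 or 8 of 13 lines above the table median. List medians were open to single lines: interferon gamma -0.64 to -0.14, type I interferon -0.67 to -0.12, sterol synthesis 0.05 to 0.29, YAP and TAZ targets -0.22 to -0.09, smooth muscle -0.44 to -0.30, cell cycle 0.04 to 0.17, adipocyte transcription factors -0.07 to 0.20 and lipid storage -0.03 to 0.09. With 5 and 8 lines from 1 mouse, wide intervals for Fabp4, Grb10 and Mx1 leave differences of more than 1 unit possible either way.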

Other observations

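The remaining signalling and fat lists stayed near the median of all genes (0.023). Of 36 Wnt pathway genes 21 had higher and 15 lower means (median 0.05, and 0.00 without SCF3-9), with 2 higher and 3 lower at an unadjusted p under 0.05, beside 3.7% and 2.34% of all genes. Among them Ccn5, a secreted matricellular protein, differed by -0.63. Of 41 genes of the BMP and TGF-beta pathway 20 had higher and 21 lower means, with Fstl3, which binds activin, at -0.50 and the BMP mediator Smad5 at 0.23. Of 22 receptors and early targets of the induction cocktail 8 had higher and 14 lower means (median -0.09). The phosphodiesterase Pde1a (-1.22) and Crem (-0.75), a factor induced by cyclic AMP, were the 2 of that list with an unadjusted p under 0.05, both lower, beside 2.34% of all genes.

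Of 24 matrix proteases and their inhibitors 8 had higher and 16 lower means (median -0.09), with Timp3, an inhibitor of metalloproteinases, at -0.70. The 24 Hedgehog and Notch genes (median 0.06) and the 21 FGF and PDGF genes (median -0.02) held 0 genes with an unadjusted p under 0.05 in limma, and also 0 with an adjusted p under 0.05. Of 28 insulin and IGF genes 14 had higher means, of 30 depot patterning genes 16, of 32 redox genes 17, of 10 thermogenic fat markers 6 and of 11 late adipocyte markers 4.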
